A study of Homo sapiens with 6 samples.

Results

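The genes of the proteasome were compared between MDA-MB-231 cells carrying a control hairpin and cells carrying a hairpin against ZNF148. Members were the rows of the expression table with a gene symbol that starts with PSM, then a letter from A to G and a number, without PSMB8 and PSMB9. This rule took 50 of 24108 rows, holding 47 gene symbols. PSMC3IP was taken through its prefix but is no subunit, which left 49 rows of 46 genes. Of these, 46 rows of 43 genes had a mean of at least 1 FPKM (mapped fragments scaled to transcript length and library size) and were tested.

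MDA-MB-231 is a human triple-negative breast cancer cell line, labelled as basal subtype. The 6 bulk RNA-seq samples were 3 replicates labelled shControl (here shCtr), with a short hairpin against luciferase in the LKO vector, and 3 labelled shZnf148. Both groups were transduced with lentivirus for 48 h and selected in 0.5 µg/ml puromycin for 24 h, so they share viral integration, hairpin expression and drug exposure. Each group is a selected cell population; the labels give no sequence for the hairpin and do not say whether replicates were separate cultures, so p-values measure only the spread between these samples. ZNF148, a zinc finger transcription factor that binds GC-rich DNA, read 3.72, 4.36 and 4.30 FPKM in the shCtr replicates 1, 2 and 3 and 0.914, 0.282 and 0.834 FPKM in those of shZnf148. It fell by 1.63 (SE 0.18, limma adjusted p = 0.0099), on the log2(FPKM + 1) scale on which all fold changes here are given. At such low levels the added 1 FPKM shrinks the change, and the ratio of mean FPKM of ZNF148 was 0.164. Without shCtr replicate 1 or shCtr replicate 3 its adjusted p was 0.0603 or 0.0568. Of 12 markers of the line and of other cell types, VIM, CD44, CAV1 and MSN were at means of 180.3 to 1772 FPKM in both groups, and ESR1, which defines the oestrogen receptor the line lacks, was listed at 0 in all 6 samples. The epithelial markers EPCAM and CDH1 were at most 11.1 and 0.491 FPKM, and PGR was at most 0.0830 FPKM. The leukocyte and endothelial markers PTPRC and PECAM1 were at most 0.131 FPKM in any sample. Of the fibroblast markers DCN was listed at 0 in 5 samples and at 2.82 FPKM in shCtr replicate 2. COL1A1 was at means of 5.06 FPKM in shCtr and 3.45 FPKM in shZnf148, and was also highest in shCtr replicate 2, at 6.62 FPKM. All 6 tested markers were lower in shZnf148, with CD44 passing the test (588.3 against 429.0 FPKM, log2 fold change -0.46, limma adjusted p = 0.0185), and whether they have a part in the results below was not tested. Because bulk RNA was measured, fewer cells expressing a gene and less of its RNA per cell cannot be told apart.

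The 26S proteasome degrades proteins tagged with ubiquitin. Its 20S core is a barrel of alpha rings, built of PSMA subunits and gating the entry, around beta rings, built of PSMB subunits and holding the protease sites. The 19S particle caps the core: its base unfolds substrates with a ring of ATPases (PSMC), and its lid removes ubiquitin before substrates enter. PSME genes encode activators that can replace the 19S cap, PSMF1 an inhibitor of the core, and PSMG genes chaperones that assemble it. Cancer cells are known for a high demand on this machine, and the transcription factor NRF1, the product of NFE2L1, induces proteasome genes when proteasome activity falls short.

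Of the 46 tested proteasome rows 32 were higher in shZnf148 cells, against 5992 of all 11777 tested rows. After quantile normalization 39 were higher, and the median log2 fold change of all tested rows moved from 0.0061 to 0.0217. The proteasome rows that passed the test were all higher. PSMA3 and PSMA4 of the alpha ring, PSMB2 of the beta ring, the base ATPase PSMC4 and the activator subunit PSME2 rose by 1.22 to 1.49-fold as a ratio of mean FPKM. These 5 were of 46 tested rows, where an adjusted p under 0.05 with a higher level was reached by 643 of all 11777 tested rows (5.46%). No member passed as lower, against 957 of all rows (8.13%). With a change of more than 1.5-fold required as well, 0 members were called in limma in either direction, against 1.83% of all rows as higher and 3.66% as lower. At an unadjusted p under 0.05 there were 15 of 46 members, against 33.8% of all rows, a share near that background. In the adjusted test 0 of 46 passed without shCtr replicate 1 or without shCtr replicate 3, when 29 and 47 of all rows passed.

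Differences were small in most members. The 32 higher and 14 lower rows had a median log2 fold change of 0.11 and a range from -0.44 to 0.56. The median over all tested rows was 0.01. In 15 members every shZnf148 value lay above every shCtr value, against 20% of all tested rows, and in 3 members every value lay below, against 21.0%. With 3 samples against 3 the exact two-sided permutation test gives these 18 genes p = 0.1, the smallest it can give.

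**Figure D1:**
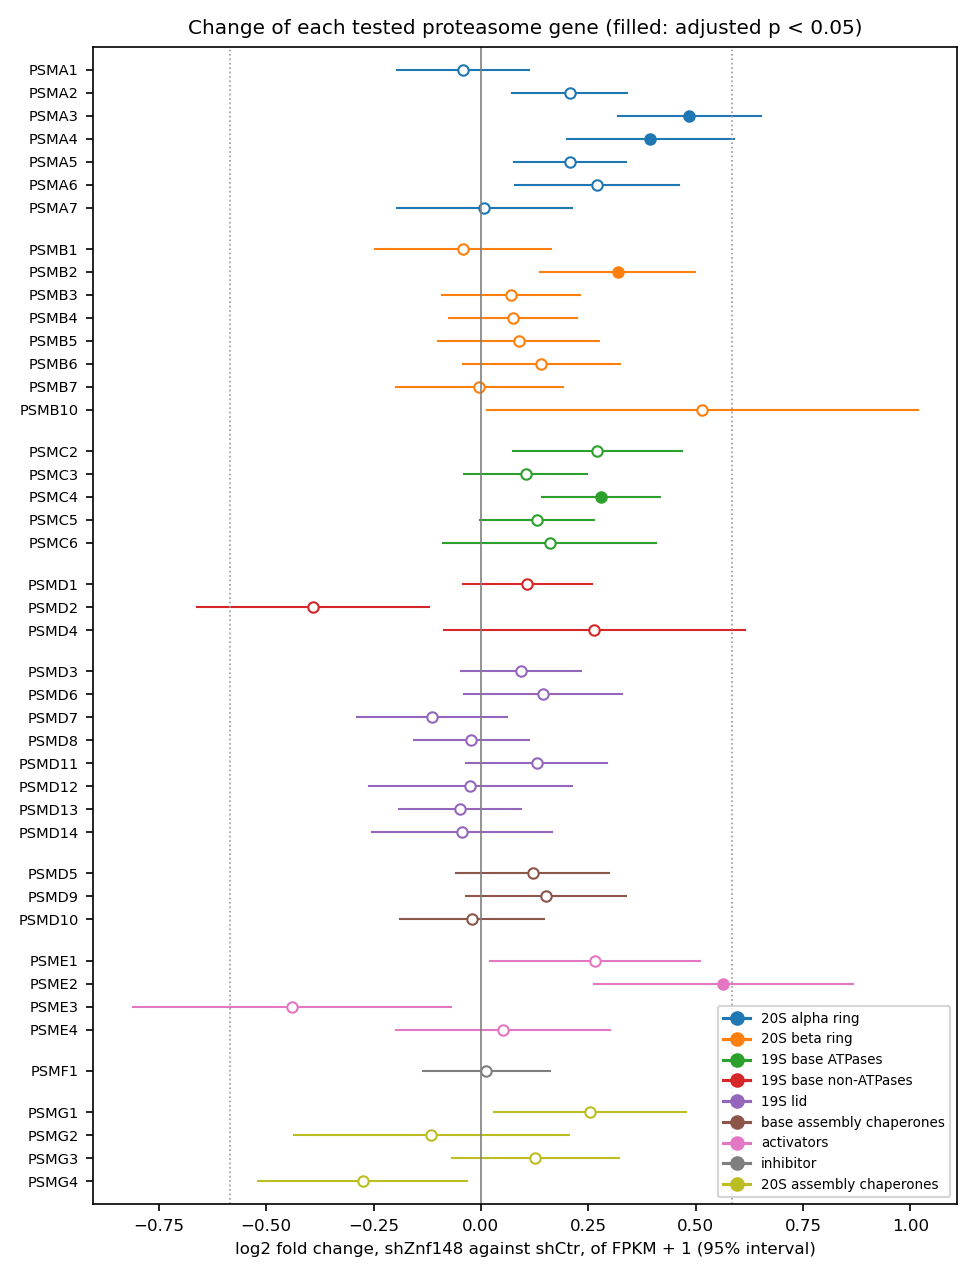
Log2 fold change (x axis, shZnf148 against shCtr, of FPKM + 1) of each of the 43 tested genes, grouped by role on the y axis; points are estimates, lines 95% intervals of the limma fit, filled points have an adjusted p under 0.05 and dotted lines mark 1.5-fold. The 5 filled points all lie right of 0, and the 8 lid genes lie between -0.11 and 0.14.

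To place the 5 genes that passed, the DNA just before the transcription start of each is shown, with words in capitals that are described with the promoters of all members further on: TGANNNNGC (an antioxidant response word, to which NRF1 can bind with a MAF partner), GGGCGG (a GC box), CCAAT, CCCCTCCCC (a C-rich word like those ZNF148 is known to bind) and GAAANNGAA (an interferon response word). Both strands were searched, and where words overlap the capitals run together. Sequences are from RefSeq on GRCh38.p14, on the strand of the gene. For PSMA3 (chr14:58244693-58244842, plus strand) the 150 bases hold CCAAT in both orientations and an antioxidant response word that overlaps the second. The stretch of PSMA4 (chr15:78540255-78540404, plus strand) holds a GC box. That of PSMC4 (chr19:39971015-39971164, plus strand) holds a GC box and an antioxidant response word. That of PSMB2 (chr1:35641527-35641676, minus strand) holds none of these words, although the longer window searched further on holds 1 antioxidant response word and 1 CCAAT. For PSME2 (chr14:24146619-24146648, minus strand) only 30 bases around the interferon response word are given, because annotated exons of PSME2 and RNF31 lie within the 150 bases before this start; those 150 bases also hold 3 GC boxes.
PSMA3: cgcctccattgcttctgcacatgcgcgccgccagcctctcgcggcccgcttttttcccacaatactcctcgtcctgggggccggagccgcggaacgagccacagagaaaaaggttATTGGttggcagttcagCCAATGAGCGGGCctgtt
PSMA4: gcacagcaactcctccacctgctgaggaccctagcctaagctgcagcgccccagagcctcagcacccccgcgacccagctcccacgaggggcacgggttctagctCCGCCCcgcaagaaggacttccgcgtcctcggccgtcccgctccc
PSMC4: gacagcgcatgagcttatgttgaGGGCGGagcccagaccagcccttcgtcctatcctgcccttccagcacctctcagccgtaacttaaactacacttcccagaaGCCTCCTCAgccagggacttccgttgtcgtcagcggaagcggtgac
PSMB2: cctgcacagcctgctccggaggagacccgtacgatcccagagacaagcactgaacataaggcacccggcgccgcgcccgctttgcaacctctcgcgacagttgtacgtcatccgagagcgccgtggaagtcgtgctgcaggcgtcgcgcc
PSME2: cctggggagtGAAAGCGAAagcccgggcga

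In the alpha ring, 6 of 7 tested genes were higher in shZnf148, 2 of them passing, and the median log2 fold change was 0.21. PSMA3 (chr14:58244843-58272012 on GRCh38, plus strand) read 115.6, 130.4 and 114.9 FPKM in shCtr and 170.5, 172.5 and 162.8 FPKM in shZnf148. Its groups did not overlap, and the lowest shZnf148 value was 162.8 FPKM where the highest shCtr value was 130.4 FPKM. PSMA3 rose by a log2 fold change of 0.49 (SE 0.07, limma adjusted p = 0.0151), with an adjusted p of 0.0828 without shCtr replicate 1 and 0.0713 without shCtr replicate 3. PSMA4 (chr15:78540405-78552417, plus strand), whose tail helps to close the gate of the core, read 107.1, 101.7 and 110.1 FPKM in shCtr and 137.4, 128.9 and 155.0 FPKM in shZnf148. All 3 shZnf148 values stood above the shCtr values, with replicate 3 the highest. PSMA4 rose by 0.39 (SE 0.08, limma adjusted p = 0.0307) and passed in 2 of the 6 fits that each left out 1 sample.

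The groups were also apart in PSMA2, PSMA5 and PSMA6, none of which passed. PSMA5 was 30.6, 30.5 and 30.6 FPKM in shCtr and 35.3, 34.8 and 36.2 FPKM in shZnf148 (log2 fold change 0.21, limma adjusted p = 0.0525). Its replicates lay close together, with an SD of 0.0735 FPKM in shCtr and 0.697 FPKM in shZnf148. PSMA2 had a log2 fold change of 0.21 (limma adjusted p = 0.0551) and PSMA6 of 0.27 (limma adjusted p = 0.0679). The remaining pair overlapped between the groups. PSMA7, the most abundant proteasome transcript in the table, read 406.5, 445.3 and 376.4 FPKM in shCtr and 439.3, 384.3 and 410.4 FPKM in shZnf148 (log2 fold change 0.01, 95% interval -0.20 to 0.21, limma adjusted p = 0.957), and PSMA1 had a log2 fold change of -0.04 (limma adjusted p = 0.684). PSMA8, a testis form of PSMA7, was listed at 0 in all samples and was not tested.

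In the beta ring, 6 of 9 tested rows were higher, 1 passed, and the median log2 fold change was 0.07. PSMB2 (chr1:35599541-35641526, minus strand), a structural subunit without a protease site, read 38.9, 42.0 and 41.0 FPKM in shCtr and 52.6, 53.9 and 46.5 FPKM in shZnf148. The groups were apart, with shZnf148 replicate 3 nearest to shCtr. PSMB2 rose by 0.32 (SE 0.08, limma adjusted p = 0.0411) and passed in 1 of the 6 fits that left out 1 sample.

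The standard protease sites are carried by PSMB5 (cutting after hydrophobic residues), PSMB6 (after acidic residues) and PSMB7 (after basic residues), and none of these genes passed. PSMB5 read 116.7, 132.8 and 128.5 FPKM in shCtr and 123.6, 140.2 and 138.3 FPKM in shZnf148, overlapping groups with a log2 fold change of 0.09 (95% interval -0.10 to 0.28, limma adjusted p = 0.467). PSMB6 read 155.0, 144.9 and 150.3 FPKM against 159.5, 182.4 and 155.7 FPKM, a log2 fold change of 0.14 (95% interval -0.04 to 0.32, limma adjusted p = 0.242), with groups narrowly apart. PSMB7 averaged 179.1 FPKM in both groups, a log2 fold change of -0.00 (95% interval -0.20 to 0.19, limma adjusted p = 0.980). The upper limits of these intervals allow a rise of the catalytic genes, so a difference was not detectable with these replicates and is not shown to be absent. A further row of PSMB5, with a mean of 42.8 FPKM, read 64.2 and 51.3 FPKM in replicate 1 of shCtr and of shZnf148 and between 34.3 and 35.7 FPKM in the other 4 samples.

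PSMB10 encodes the interferon-inducible subunit that takes the place of PSMB7 in the immunoproteasome. It read 25.6, 25.5 and 23.4 FPKM in shCtr and 30.3, 51.9 and 29.3 FPKM in shZnf148. All shZnf148 values lay above those of shCtr, and shZnf148 replicate 2 stood far above the other 5. Its log2 fold change was 0.52 (SE 0.21, limma adjusted p = 0.140), the largest in the beta ring, and 0.26 without shZnf148 replicate 2. The immunoproteasome genes PSMB8 and PSMB9 each had 8 rows in the table, all listed at 0 in the 6 samples. A 0 there is no evidence that the genes were silent: 167 symbols had at least 6 rows, and 94.57% of their 1196 rows were at 0 in all samples. Among the other beta genes, PSMB4, a structural subunit and the most abundant of this ring, read 283.3, 258.4 and 287.5 FPKM against 292.2, 292.4 and 288.0 FPKM (log2 fold change 0.07, limma adjusted p = 0.432). PSMB1 and PSMB3 had log2 fold changes of -0.04 and 0.07 and overlapped. PSMB11, the thymus form of the subunit PSMB5, was listed at 0 in all samples.

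**Figure D2:**
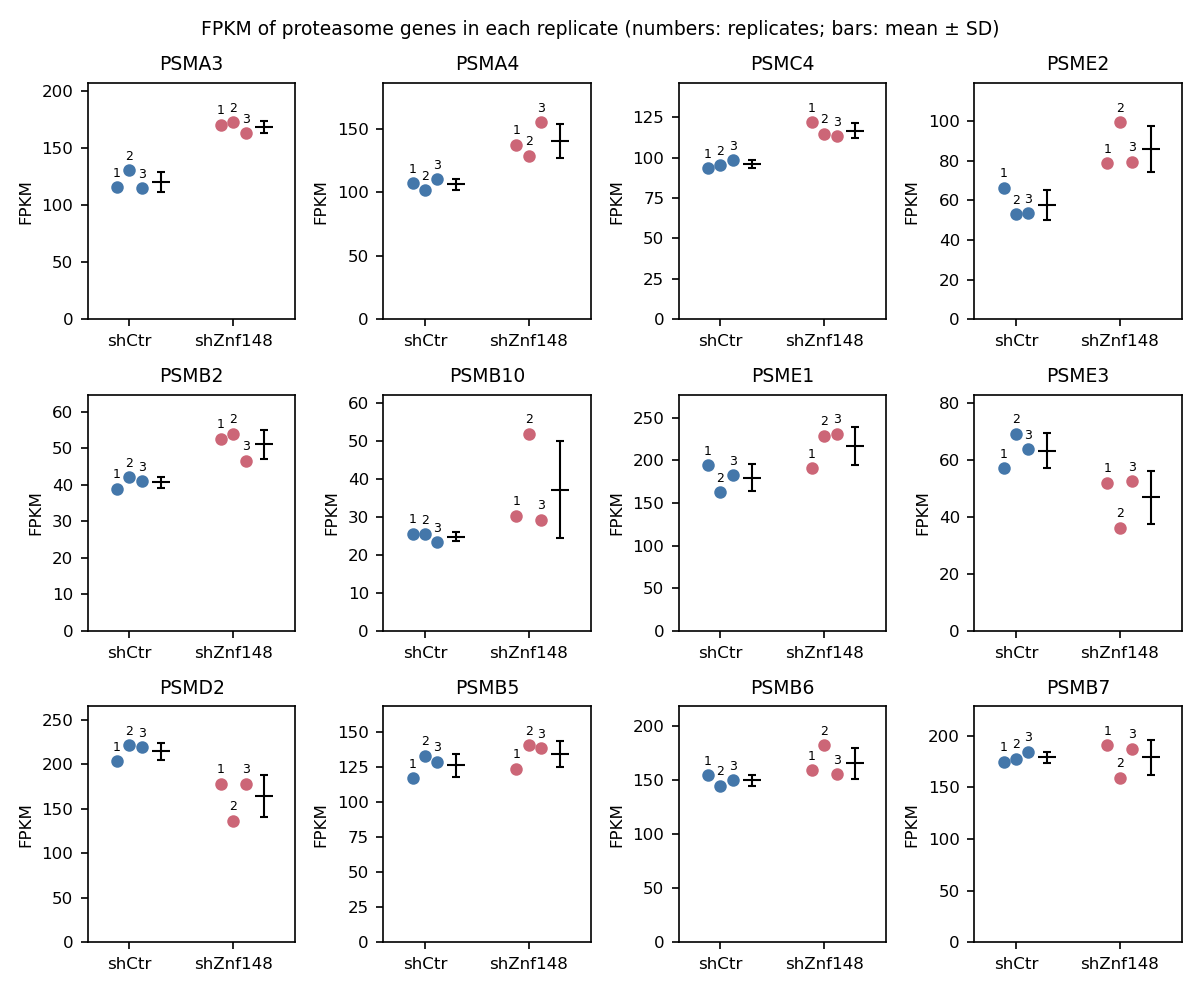
FPKM (y axis, from 0) of 12 proteasome genes in each sample; points are the shCtr and shZnf148 replicates with their numbers, and black bars are the mean ± SD of 3. The groups are apart upward in PSMA3, PSMA4, PSMC4, PSME2, PSMB2, PSMB10 and PSMB6, downward in PSME3 and PSMD2, and overlap in PSME1, PSMB5 and PSMB7.

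All 6 tested rows of the base ATPases were higher in shZnf148, with log2 fold changes from 0.10 to 0.28 and a median of 0.19, and 1 passed. PSMC4 (chr19:39971165-39981764, plus strand), which encodes the ATPase Rpt3, read 93.5, 95.4 and 98.5 FPKM in shCtr and 121.7, 114.8 and 113.1 FPKM in shZnf148. The groups were separated by more than the range of either. PSMC4 rose by 0.28 (SE 0.06, limma adjusted p = 0.0307) and passed in 2 of the 6 fits that left out 1 sample. PSMC2, encoding Rpt1, was also apart, at 36.9, 42.4 and 41.8 FPKM against 45.2, 50.6 and 51.0 FPKM (log2 fold change 0.27, limma adjusted p = 0.0725), as was PSMC5, encoding Rpt6 (log2 fold change 0.13, limma adjusted p = 0.153). PSMC3, encoding Rpt5 and the most abundant of the ring, read 143.1, 152.8 and 143.0 FPKM against 163.8, 152.5 and 155.8 FPKM (log2 fold change 0.10, limma adjusted p = 0.266). PSMC6 overlapped at a log2 fold change of 0.16. PSMC1, encoding Rpt2, was listed at 0.0718 to 0.223 FPKM and so was not tested, while its partners in the ring were at means of 26.2 to 151.8 FPKM; RefSeq names 13 pseudogenes of PSMC1, against at most 6 of any other member, and how the pipeline shared reads among them was not tested.

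The base non-ATPases, large scaffolds and ubiquitin receptors, moved in different directions and none passed. PSMD2 (chr3:184299198-184309050, plus strand), the scaffold Rpn1 that receives shuttle proteins, read 203.1, 221.1 and 219.2 FPKM in shCtr and 178.0, 136.7 and 178.3 FPKM in shZnf148. All shZnf148 values were below those of shCtr, and replicate 2 was the lowest. Its log2 fold change was -0.39 (SE 0.11, limma adjusted p = 0.0640), with an adjusted p of 0.0356 when shZnf148 replicate 2 was left out. PSMD4, the ubiquitin receptor Rpn10 and the most abundant gene of this class, read 277.3, 250.5 and 251.3 FPKM in shCtr and 271.5, 281.8 and 396.0 FPKM in shZnf148. The groups overlapped, and the log2 fold change of 0.26 (limma adjusted p = 0.253) was 0.09 without shZnf148 replicate 3. PSMD1, the scaffold Rpn2, had groups apart at a log2 fold change of 0.11 (limma adjusted p = 0.273).

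The lid showed neither a passing gene nor groups that were apart. Of the 8 lid genes taken by the rule 3 were higher and 5 lower (6 higher and 2 lower after quantile normalization). In the fit reported they had a median log2 fold change of -0.02 and a range from -0.11 to 0.14. PSMD14, the deubiquitinase Rpn11 that strips ubiquitin from substrates, read 89.8, 93.9 and 93.2 FPKM in shCtr and 94.9, 78.6 and 95.8 FPKM in shZnf148 (log2 fold change -0.04, 95% interval -0.25 to 0.17, limma adjusted p = 0.752). PSMD8, the scaffold Rpn12 and the most abundant lid gene, read 139.8, 145.1 and 142.3 FPKM against 136.9, 146.5 and 137.5 FPKM (log2 fold change -0.02, 95% interval -0.16 to 0.11). PSMD6, the scaffold Rpn7, differed most in this class, at 71.1, 80.1 and 70.9 FPKM against 81.7, 87.0 and 76.9 FPKM (log2 fold change 0.14, limma adjusted p = 0.237), with overlapping groups. The direction of the lid also depended on single samples. Without shZnf148 replicate 2, 5 lid genes were higher and 3 lower, with a median log2 fold change of 0.04. Without shCtr replicate 3 or shZnf148 replicate 1, 4 were higher and 4 lower. In the other fits that left out 1 sample 3 were higher and 5 lower. The difference between the lid and the other classes was not tested.

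Among the activators, 1 gene passed, and the members went in different directions. PSME2 and PSME1 encode the PA28 beta and alpha subunits of the interferon-inducible activator ring of the cytosol. PSME2 (chr14:24143362-24147570, minus strand) read 66.4, 53.0 and 53.7 FPKM in shCtr and 78.7, 99.4 and 79.6 FPKM in shZnf148. The groups did not overlap, with shCtr replicate 1 the highest control and shZnf148 replicate 2 the highest of all. PSME2 rose by 0.56 (SE 0.13, limma adjusted p = 0.0361), the largest change of any member, and passed in 1 of the 6 fits that left out 1 sample. The exons of PSME2 overlap those of RNF31 on the opposite strand, which averaged 8.87 ± 0.72 FPKM in the controls and 11.2 ± 0.78 FPKM in shZnf148 cells (SD, n = 3; log2 fold change 0.30, limma adjusted p = 0.0688), and without knowledge of strand in the counting the reads of the overlap cannot be told apart. RefSeq also names 6 pseudogenes of PSME2. In GENCODE release 44 the exons of 17 of the 46 genes overlap those of a gene on the opposite strand, among them PSME1 (EMC9), PSME3 (BECN1), PSMC2 (SLC26A5), PSMC5 (FTSJ3), PSMD1 (HTR2B) and PSMD6 (its antisense RNAs), and the values of these genes are uncertain to that extent; PSMA3, PSMA4, PSMB2 and PSMC4 have no such overlap.

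PSME1 (chr14:24136163-24138967, plus strand), the partner of PSME2 and the most abundant activator, read 194.0, 162.8 and 182.7 FPKM in shCtr and 190.6, 228.9 and 231.0 FPKM in shZnf148. The groups overlapped through shCtr replicate 1 and shZnf148 replicate 1 (log2 fold change 0.27, SE 0.10, limma adjusted p = 0.123). PSME3 (chr17:42824385-42843760, plus strand), the nuclear activator PA28 gamma, went the other way, at 57.0, 69.1 and 63.7 FPKM in shCtr and 51.9, 36.2 and 52.6 FPKM in shZnf148. All shZnf148 values were below those of shCtr, and replicate 2 was the lowest. The log2 fold change of PSME3 was -0.44 (SE 0.16, limma adjusted p = 0.102), the lowest of any member, and -0.27 without shZnf148 replicate 2. PSME4, the activator PA200, was the least abundant tested member at a mean of 18.3 FPKM, with a log2 fold change of 0.05 and overlapping groups. In PSMB10 and PSME2 shZnf148 replicate 2 was the highest sample, and in PSMD2 and PSME3 the lowest. That was not particular to these genes. The same sample was also the highest in PSMA2, PSMA6 and PSMB6, and the lowest in PSMB7, PSMD14, PSME4, PSMG2 and PSMG4, among others.

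Chaperones and the inhibitor held no passing gene. PSMF1, the inhibitor PI31, read 27.9, 29.6 and 30.4 FPKM in shCtr and 29.3, 30.2 and 29.1 FPKM in shZnf148 (log2 fold change 0.01, 95% interval -0.14 to 0.16, limma adjusted p = 0.907). The PSMG chaperones of core assembly went both ways: PSMG4 read 35.8, 32.4 and 32.9 FPKM in shCtr and 29.1, 23.9 and 30.3 FPKM in shZnf148 (log2 fold change -0.28, limma adjusted p = 0.112), with all shZnf148 values lower. PSMG1 was apart in the opposite direction (log2 fold change 0.25, limma adjusted p = 0.113), although its closest values were 65.2 FPKM in shCtr and 65.3 FPKM in shZnf148. PSMG2, the partner of PSMG1 in a heterodimer and the most abundant of the 4, read 68.2, 77.8 and 63.7 FPKM against 64.2, 54.3 and 76.0 FPKM (log2 fold change -0.12, limma adjusted p = 0.577). The base chaperones PSMD5, PSMD9 and PSMD10 overlapped between the groups. PSMD9 (p27) had the widest difference of these, at 17.6, 18.8 and 18.9 FPKM against 21.9, 18.9 and 21.1 FPKM (log2 fold change 0.15, limma adjusted p = 0.219), and PSMD10 (gankyrin), the most abundant, read 35.0, 31.9 and 31.6 FPKM against 30.9, 33.9 and 32.1 FPKM (log2 fold change -0.02, limma adjusted p = 0.860).

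Levels ranged widely among genes that mostly encode parts of 1 complex. On the FPKM scale, which is per length, the mean over the 6 samples was 410.4 for PSMA7, 288.1 for PSMD4, 283.6 for PSMB4 and 273.5 for PSMB1, the 4 highest. By the highest row of each gene, the lowest tested levels were 24.6 for PSMD5, 19.5 for PSMD9 and 18.3 for PSME4, all chaperones or activators and not parts of the 26S particle. The lower row of PSMC3, a base ATPase, averaged 19.2 FPKM. Within the alpha ring the range ran from 33.0 FPKM for PSMA5 to 410.4 FPKM for PSMA7, and within the base ATPases from 26.2 FPKM for PSMC6 to 151.8 FPKM for PSMC3. The 5 genes that passed were of middling level, from 45.8 FPKM for PSMB2 to 144.4 FPKM for PSMA3.

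**Figure D3:**
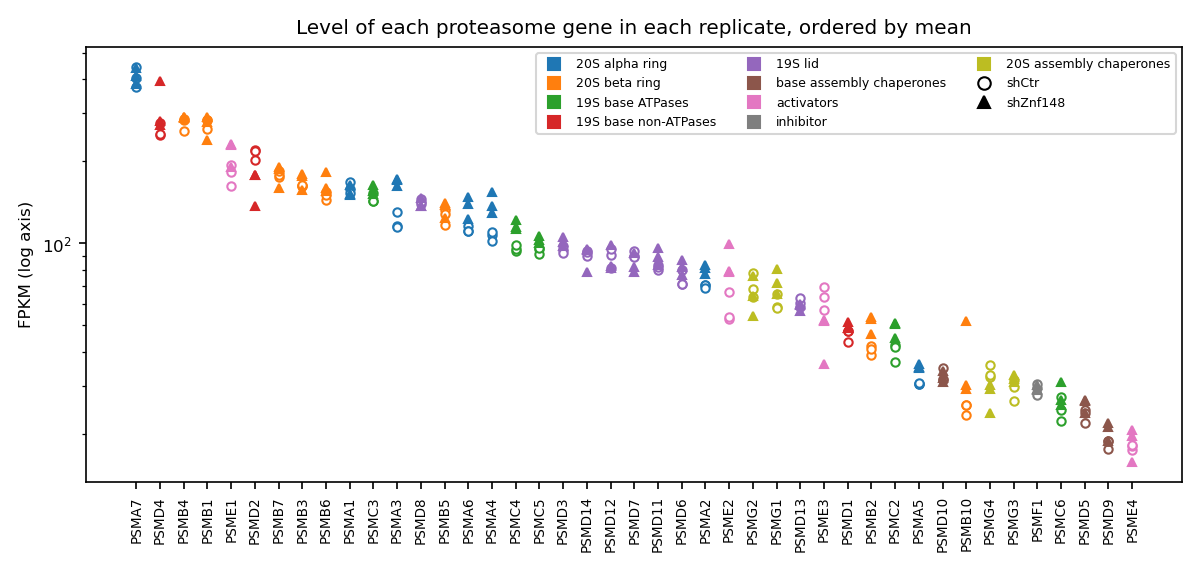
FPKM (y axis, log scale) of the 43 tested genes in each sample, ordered from the highest to the lowest mean along the x axis; open circles are shCtr replicates, filled triangles shZnf148 replicates and colours roles. Levels run from 410.4 FPKM for PSMA7 to 18.3 FPKM for PSME4, and the lone high triangles are PSMD4 in shZnf148 replicate 3 and PSMB10 in shZnf148 replicate 2.

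Summed over the 49 rows, proteasome FPKM was 4622, 4636 and 4588 in shCtr and 4857, 4843 and 5079 in shZnf148, a ratio of means of 1.07. As a share of all FPKM in the table this was 0.911% to 0.928% in shCtr and 0.992% to 1.08% in shZnf148, while the sum of the whole table was lower in shZnf148 (mean 477700 against 501600). Sums are given as a description, without a test. The 20S core amounted to 2291 ± 28.6 FPKM in the controls and 2468 ± 12.9 FPKM in shZnf148 cells (SD, n = 3). By class, the ratio was 1.13 for the base ATPases, 1.12 for the alpha ring, 1.05 for the beta ring, 1.03 for the base non-ATPases and 1.01 for the lid. The 4 activators gave a ratio of 1.16. PSME1 and PSME2 together went from 237.5 ± 22.3 to 302.7 ± 30.3 FPKM, a ratio of 1.27, while PSME3 had a ratio of 0.741 and PSME4 of 1.04.

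**Figure D4:**
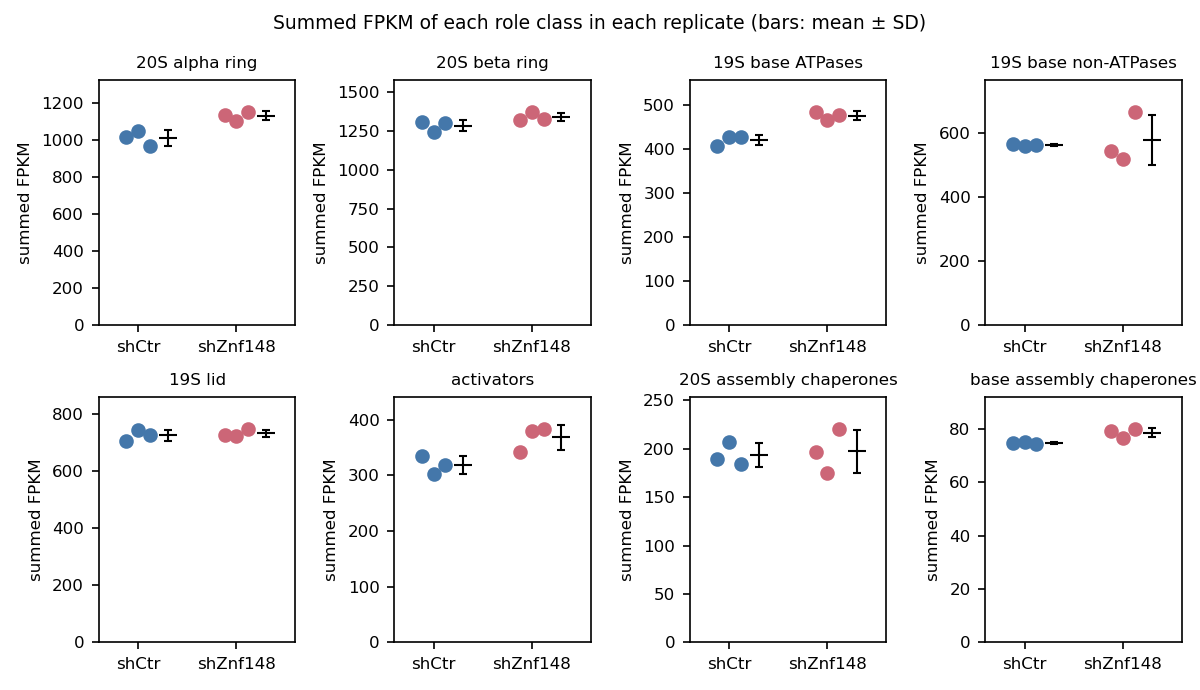
Summed FPKM (y axis, from 0) of 8 role classes in each sample; points are replicates and black bars the mean ± SD of 3. The alpha ring, beta ring, base ATPases, base chaperones and activators are apart between the groups, while the lid, the base non-ATPases and the core chaperones overlap.

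Promoters of the members were searched for the words marked above in windows from 250 bases before to 50 after each start in RefSeq, on both strands. Windows were found for 40 of the 46 genes, 48 windows in all, and are set beside 35116 windows of all genes as a description. The antioxidant response word TGANNNNGC was in 60.4% of member windows and 41.8% of all, and GGGCGG in 66.7% and 45.0%. CCAAT was in 39.6% and 34.6%. The interferon response word GAAANNGAA was in 7 member windows (14.6%, against 8.11% of all), those of PSMB4, PSMG4, PSMC2, PSME1, PSME2, PSMA4 and PSMB10, so that all 3 tested interferon-inducible members held it. The C-rich word CCCCTCCCC was in 2 member windows, of PSMG4 and PSMG1 (4.17%, against 7.81% of all). Neither of these genes passed the test. A match is a run of letters and not a binding site, and no binding was measured in these samples. The paper mapped binding of tagged ZNF148 in MDA-MB-231 cells in a separate experiment, which was not used here. It describes the motif as repeats of C or G, so counts of the C-rich word do not show which members ZNF148 binds.

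Subunits that the rule did not take, and genes that work with the proteasome, were taken from lists. They are described by counts beside the shares of all rows given above. Of 10 further subunits and bound factors, ADRM1 and SEM1 among them, 8 were higher and 1 passed, with a median log2 fold change of 0.04. The ubiquitin ligase UBE3C, which extends chains on stalled substrates, read 38.0, 38.1 and 40.4 FPKM in shCtr and 46.6, 44.7 and 50.9 FPKM in shZnf148. UBE3C rose by 0.28 (SE 0.07, limma adjusted p = 0.0468) and passed in 1 of 6 fits that left out 1 sample.

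In the NRF1 pathway 10 genes were tested, 7 higher and 3 lower, and 1 passed, with a median log2 fold change of 0.07. Groups were apart upward in 2 of them and downward in 2. NFE2L1, encoding NRF1 itself, read 99.7, 102.6 and 98.5 FPKM in shCtr and 96.5, 113.4 and 91.7 FPKM in shZnf148, overlapping groups (log2 fold change -0.00, 95% interval -0.21 to 0.21, limma adjusted p = 0.989). MAFF, a small MAF protein that can pair with it, read 30.4, 26.2 and 26.6 FPKM against 19.1, 18.8 and 21.8 FPKM. MAFF fell by 0.46 (SE 0.09, limma adjusted p = 0.0273) and passed in 2 of the 6 fits. The other small MAF genes of the list went both ways and did not pass. MAFK was lower (log2 fold change -0.41, limma adjusted p = 0.0610) and MAFG higher (log2 fold change 0.19, limma adjusted p = 0.208), each with groups apart. No row passed among ubiquitin genes and E1 enzymes (7 rows of 5 genes, median log2 fold change -0.10), p97 cofactors (8 tested, median 0.03), the COP9 signalosome, a relative of the lid (9 tested, median 0.01), or the TRiC chaperonin (8 tested, median -0.05). These 4 lists held 0, 1, 1 and 0 rows with groups apart upward and 1 row each apart downward; at an unadjusted p under 0.05 in limma there were 1, 0, 1 and 1 rows, against 33.8% of all rows.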

How the data were processed

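RNA-seq of 6 MDA-MB-231 samples, 3 shCtr and 3 shZnf148, was analysed from 1 table of FPKM values deposited by the authors, with a column per sample and no further columns. The submitters' processing notes name bcl2fastq 2.17.1.14, TopHat2 2.0.14, Cufflinks 2.2.1 and Cuffnorm 2.2.1 and the builds hg18 and hg19, without their roles; the paper's methods name Salmon, GRCh38 and DESeq2. Which of these made the FPKM values, with what annotation and whether by strand, could not be settled. FPKM are not counts, so the count test of the paper was not run. Depth is unknown; steps between low values put the samples at 0.806 (shZnf148 replicate 3) to 1.13 times shCtr replicate 1.

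The 11777 of 24108 rows that averaged 1 FPKM or more were fitted as log2(FPKM + 1) by limma 3.58.1 under R 4.3.3. The model held condition alone, variances were moderated along their trend with the mean, and Benjamini-Hochberg adjustment ran over all tested rows. A row passed at an adjusted p under 0.05 and was called with a change of more than 1.5-fold as well. The code was tested on simulated data. Members and lists were chosen with earlier results of these data known. Given in full were all passing members, the member of each role with the largest change and the highest mean, the catalytic and interferon-inducible genes and PSMD14; other members apart between the groups were named after their values were seen. Of a symbol with several rows the one with the highest mean was named. From the lists, passing genes and NFE2L1 were named, and MAFG and MAFK were added beside MAFF after their values were seen. Coordinates are from GENCODE release 44 on GRCh38 and promoters from RefSeq, not from the table. Alternatives covered the pseudocount, the filter, the scaling, the variance model, a replicate block, summed rows and each sample left out. Some genes of the lists, and 1 list, are not reported here.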

Additional observations from a re-analysis of the deposited data

How the results depend on the processing

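In 16 alternatives none of the genes that passed changed sign. Sign changes were seen in 12 of 48 genes followed, none of which passed and all with a log2 fold change within 0.12 of 0 in the fit reported: PSMA1, PSMB1, PSMB7, PSMD8, PSMD10, PSMD12, PSMD14 and NFE2L1 after quantile normalization, all then higher, and PSMA7, PSME4, PSMF1 and PSMG2 only when 1 sample was left out. The number of member rows passing, 5 in the fit reported, was 3 with no filter on low values, 8 after quantile normalization (with PSMA2, PSMA5 and PSMA6 added) and 1 (PSMA3) with a replicate block. It ranged from 0 to 6 when 1 sample was left out: 0 without shCtr replicate 1 or 3, 1 without shCtr replicate 2 or shZnf148 replicate 1, and 6 without shZnf148 replicate 2, PSMD2 then passing as lower, so that rows passing lower ranged from 0 to 1. Quantile normalization called 1 member, PSME2. The median log2 fold change of the members, 0.11, was 0.15 after quantile normalization and 0.0895 to 0.122 when 1 sample was left out. Over all rows, 1600 passed and 647 were called; with a replicate block these were 401 and 315, with a pseudocount of 5 FPKM 280 were called, and when 1 sample was left out 29 to 1731 passed and 29 to 608 were called. Each such fit has fewer samples; the cause of the other shifts was not tested.

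Whether same-numbered samples were paired is not known. Over the tested rows their deviations from the group means correlated at 0.001, -0.088 and 0.030 for numbers 1, 2 and 3. Correlations over all rows cannot exclude a replicate effect on some genes, and the further row of PSMB5 was highest in replicate 1 of both groups. With the replicate block the adjusted p was 0.0457 for PSMA3, 0.0574 for PSMA4, 0.0832 for PSMC4, 0.0771 for PSME2 and 0.0821 for PSMB2, and UBE3C and MAFF also no longer passed. The share of passing rows that were higher was 40.19% in the fit reported, 37.6% after scaling to a common median and 46.06% after quantile normalization. The unknown depth limits the precision of low values such as those of PSMC1.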

Other observations

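Rows not described in the report gave the following values. PSMC3IP, which encodes a partner of PSMC3 that acts in meiotic recombination, averaged 15.02 ± 1.52 FPKM in the controls and 16.7 ± 4.09 FPKM after knockdown, and the groups overlapped (SD, n = 3; log2 fold change 0.12, limma adjusted p = 0.626). The lower rows of PSMC3 and PSMD4 had means of 19.2 and 43.4 FPKM and log2 fold changes of 0.21 and 0.14, in the same direction as the higher rows of these genes, with overlapping groups. The core chaperone PSMG3 had a log2 fold change of 0.13 (limma adjusted p = 0.315). In the lid, PSMD3 and PSMD11 were higher, with log2 fold changes of 0.09 and 0.13, and PSMD7, PSMD12 and PSMD13 were lower, with -0.11, -0.02 and -0.05; none of these 5 passed in limma, and none had groups apart. Of the further subunits and bound factors, ADRM1, a ubiquitin receptor of the base, read 139.7, 145.3 and 146.7 FPKM in shCtr and 182.9, 169.8 and 153.7 FPKM in shZnf148 (log2 fold change 0.23, limma adjusted p = 0.0923). All 3 of its shZnf148 values were above those of shCtr. COPS3 of the COP9 signalosome, chosen like ADRM1 after its values were seen, had groups apart at 54.1 ± 0.32 and 62.0 ± 1.66 FPKM (SD, n = 3; log2 fold change 0.19, limma adjusted p = 0.0592).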
